A study of Mus musculus with 50 samples.

Results

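The expression of 4 genes of oligodendrocytes and myelin, Mbp, Cnp, Gsn and Qk, was followed in the PVN, the hypothalamic paraventricular nucleus, of C57BL/6J and DBA/2J mice before and after acute stress. The genes were found by their full names among the clones of a spotted cDNA array, which gave 15 of 22824 clones: 6 for Mbp, 3 for Cnp, 1 for Gsn and 5 for Qk. A clone is named here by its gene and its spot number on the array.

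The mice were males of 3 to 5 months. Stressed mice swam for 5 min in a forced swim test and were killed 4 h or 8 h later, and basal mice were not stressed. The PVN was punched out of frozen brain, RNA of 6 animals was pooled and amplified in 2 rounds, and 1 pool was made for each of the 6 conditions: C57BL/6J basal, C57BL/6J 4 h, C57BL/6J 8 h, DBA/2J basal, DBA/2J 4 h and DBA/2J 8 h. Each of 5 comparisons set 2 pools against each other on 10 arrays, 5 with each assignment of the dyes Cy5 and Cy3. The 10 arrays are repeated hybridisations of the same pools, so errors and p-values below describe labelling and hybridisation and not the spread between animals. Both stress times of a strain were compared with the same basal pool, which also entered the comparison of the strains.

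Oligodendrocytes wrap axons of the central nervous system in myelin, a stack of membrane layers that speeds the conduction of impulses. Myelin basic protein (Mbp) holds the cytoplasmic faces of these layers together. The 2',3'-cyclic nucleotide phosphodiesterase Cnp lies in the parts of myelin that keep cytoplasm. Gelsolin (Gsn) cuts and caps actin filaments, and Quaking (Qk) is an RNA-binding protein that acts on myelin mRNAs, Mbp included. In a punch of tissue, fewer cells of a type and less RNA per cell cannot be told apart.

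The signal of the 15 clones differed widely. Cnp 13431 was the brightest, with a median Cy5 intensity of 34381 (lowest 10560, highest 61110 of 50 arrays) and only 0.166% of clones brighter. For Mbp 10632 the median Cy5 intensity was 5045 (1068 to 9358), with 1.66% of clones brighter. Both lay above the 95th percentile of the 1170 empty spots in both dyes on all 50 arrays, the only 2 members to do so. The brightest clones of the other genes, Qk 21679 and Gsn 20046, passed that level on 38 and 25 arrays. At the other end, Cnp 21155 passed it on 0 arrays, and Cnp 2973 and Qk 10719 on 1 array each. The brightness of a spot also depends on the clone, so it does not rank the genes by expression. The arrays differed in this respect: 29.7% to 57.1% of all clones passed the level on the arrays of C57BL/6J at 4 h, and 5.31% to 8.07% on those of DBA/2J at 8 h. The level itself ran from 171 to 2879 in Cy5 and from 287 to 4367 in Cy3 across the arrays. A clone can therefore miss it where the empty spots are bright. Of the neuropeptide genes that mark the PVN, Crh and Oxt clones passed it on 0 arrays and Avp on 11 of 50. The Trh clone was brighter, at percentile 82.2 of all clones by brightness.

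Values are log2 ratios of the first pool named over the second, called changed at 1.414-fold or more with an adjusted p under 0.05 (limma with a dye term, Benjamini-Hochberg over the 22824 clones). The dye labels place the DBA/2J pool over the C57BL/6J pool and the stressed over the basal pool, and the authors' own deposited ratios run the same way. The folds listed by the study have the opposite sign in all 5 comparisons, and the files do not settle which is right. The study also measured a few other genes after stress by real-time PCR and in situ hybridisation. It reports increases in DBA/2J that run the same way as its listed folds, and so against the labels. Those measurements were not used here. Alad, a gene duplicated in DBA/2J, had 1 clone, at -0.30 (standard error 0.17, adjusted p = 0.43, limma), which passed the level of empty spots on 3 of 50 arrays. Every direction below follows the labels and may be the reverse of the true one. Read with the pools exchanged, the basal ratio is -1.08 for Mbp 10632 and 1.06 for Cnp 13431.

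The first comparison asked how the non-stressed strains differ. Mbp was higher in the DBA/2J pool in 4 of its 6 clones, while 1 clone each of Cnp and Gsn was lower. These 6 calls were 40.0% of the 15 clones, against 3.63% of all clones called either way in this comparison. Of the 6, 4 are clones of 1 gene. Calls were more frequent among bright clones: with dim clones left out, 8 of 12 members and 1102 of 11412 clones were called. By direction, 1.61% of all clones were called higher and 2.02% lower. An unadjusted p under 0.05 was found for 8 of the 15, against 15.4% of all clones. The median of the 15 log2 ratios was 0.15, against 0.01 over all clones. No clone of Qk was called.

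The 4 Mbp clones lay on the same side of 0 on every array. Mbp 10632 had log2 ratios from 0.87 to 1.45 on the 10 arrays, with a median of 1.02. Mbp 12775 ranged from 0.76 to 1.5 (median 1.04), and Mbp 7126 from 0.13 to 1.85 (median 0.81). Of these 3 clones Mbp 7126 spread the most. Mbp 6853 was also above 0 on all 10 arrays, from 0.06 to 1.13 with a median of 0.63.

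The fitted difference was 2.11-fold for Mbp 10632 (log2 ratio 1.08, standard error 0.13, adjusted p = 0.00043, limma). It was 2.14-fold for Mbp 12775 (adjusted p = 0.00049) and 1.76-fold for Mbp 7126 (adjusted p = 0.012). Mbp 6853 was the smallest at 1.56-fold (adjusted p = 0.020), and it is the only one of the 6 calls that did not hold when single arrays were left out: it was lost without replicate 2, 5 or 9 (adjusted p up to 0.058). On the 10 basal arrays the level of empty spots was passed 10 times by Mbp 10632, 6 times by Mbp 7126, 5 times by Mbp 12775 and 1 time by Mbp 6853. The means of the 2 dye orientations were close for these clones, for instance 1.07 with the DBA/2J pool in Cy5 and 1.09 with it in Cy3 for Mbp 10632. The arrays were scanned on 2 days, and Mbp 10632 averaged 1.10 on the 7 arrays of the first day and 1.02 on the 3 of the second.

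The other Mbp clones did not follow. Mbp 17185 passed the level of empty spots on 2 of the 10 basal arrays. It was below 0 on 9 of 10 arrays (-1.16 to 0.09, median -0.59), and its log2 ratio of -0.52 (standard error 0.15) missed the threshold at an adjusted p of 0.077 by limma. With print-tip loess in place of global loess it passed as lower (-0.52, adjusted p = 0.049), and it also passed with the filter on dim clones, the methods' t-test, the scan day as a block and all arrays in one fit. Mbp 22576, which passed the level of empty spots on 4 of 50 arrays, had a log2 ratio of 0.15 with a 95% interval from -0.21 to 0.51. The clones of 1 gene may cover different parts of its transcripts, and their sequences were not used here.

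**Figure D1:**
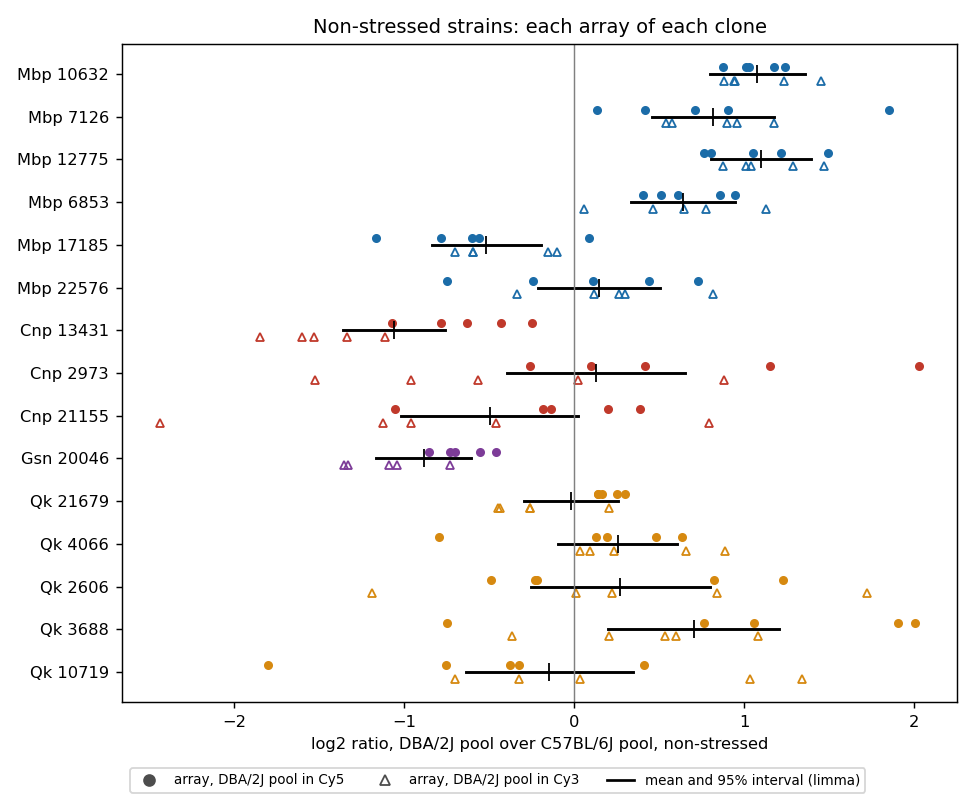
Log2 ratio (DBA/2J pool over C57BL/6J pool, non-stressed) of each of the 15 clones on each of 10 arrays, filled circles with the DBA/2J pool in Cy5 and open triangles with it in Cy3; black bars are the mean with its 95% interval. The upper 4 Mbp clones lie right of 0 on all arrays, Cnp 13431 and Gsn 20046 left of 0 on all arrays, and the open triangles of Cnp 13431 lie further left than its circles.

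Cnp 13431 was lower in the DBA/2J pool, but its size depended on the dye and on the normalization. Its log2 ratio ranged from -1.85 to -0.25 on the 10 arrays, with a median of -1.09, and was below 0 on all of them. The fit gave -1.06 (standard error 0.14, adjusted p = 0.00072, limma). The mean was -0.63 with the DBA/2J pool in Cy5 and -1.48 with it in Cy3, and the 2 sets of 5 arrays do not overlap. On the first scan day the mean was -0.83 over 7 arrays, and on the second, with 3 arrays of the Cy3 orientation, -1.59. With print-tip loess the ratio was -0.38 (adjusted p = 0.092), and in the authors' processed values -0.12 (adjusted p = 0.61), so that the call was lost in both. The other Cnp clones, at or near the level of empty spots, had 0.13 (95% interval -0.39 to 0.65) and -0.50 (-1.02 to 0.02).

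The clones printed around Cnp 13431 were low as well. It lies in row 16 of column 12 of its print-tip block, the set of spots laid down by 1 pin. Of the other 23 clones of that column, 20 had a log2 ratio below 0, with a median of -0.43, whereas the median of the block's other 479 clones was -0.01. The 6 clones of the block within 1 log2 unit of its brightness had a median of -0.99. Over the whole array, the 105 clones of like brightness had a median of -0.36, with 5% of them below -1.06. When the median of each block column was subtracted on every array, a step added after seeing these values, Cnp 13431 came to -0.56 (adjusted p = 0.032). The part of position and brightness in its ratio was not tested beyond these values.

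Gsn 20046, the only gelsolin clone, was lower in the DBA/2J pool on all 10 arrays. Its log2 ratios ran from -1.35 to -0.46, with a median of -0.79. It lay above empty spots on all 10 arrays here. On the arrays of C57BL/6J at 4 h and 8 h, which share the C57BL/6J basal pool, it did so on 0 and 1 of 10. On those of DBA/2J at 4 h and 8 h, which share the DBA/2J basal pool, it did so on 10 and 4 of 10. These counts run opposite to a lower signal in DBA/2J, and the reason was not tested. The fitted ratio was -0.88 (standard error 0.13, adjusted p = 0.0016, limma), a 1.84-fold difference. Its mean was -0.66 with the DBA/2J pool in Cy5 and -1.11 with it in Cy3. On the first scan day it averaged -0.77 and on the second -1.15. Of the 23 other clones of its column, 12 were below 0 and their median was -0.07, but 3 in rows 16 to 21, around its own row 19, had ratios of -0.74, -1.09 and -1.11. With print-tip loess Gsn was at -0.69 (adjusted p = 0.0053), in the authors' values at -0.80 (adjusted p = 0.0045) and with block columns centred at -0.71 (adjusted p = 0.0079). Its call was kept in these 3.

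**Figure D2:**
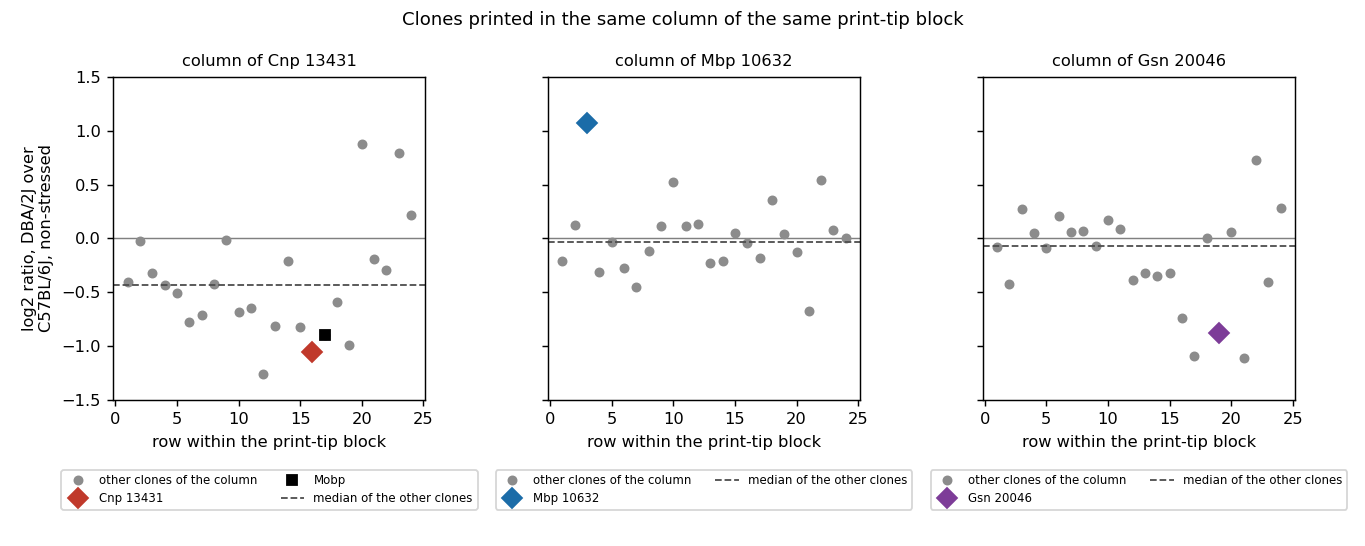
Basal log2 ratio (DBA/2J over C57BL/6J) of every clone printed in the same column of the same print-tip block as Cnp 13431, Mbp 10632 and Gsn 20046, against the row; the dashed line is the median of the other clones. The column of Cnp 13431 lies mostly below 0 (median -0.43) and holds Mobp in the next row, whereas the columns of Mbp 10632 and Gsn 20046 have medians of -0.04 and -0.07.

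Qk did not differ detectably between the basal pools. Qk 21679 ranged from -0.45 to 0.30 (median 0.14) and had a log2 ratio of -0.02 with a 95% interval from -0.30 to 0.26. Its 5 arrays with the DBA/2J pool in Cy5 were all above 0 and 4 of the 5 in the other orientation were below. The other 4 Qk clones lay between -0.15 and 0.70. The highest, Qk 3688, was at 0.70 (standard error 0.24, adjusted p = 0.14, limma), with arrays from -0.75 to 2.00. It passed the level of empty spots on 0 of the 10 basal arrays. Limma called it without replicate 5 (0.92, adjusted p = 0.020), with the filter on dim clones (adjusted p = 0.04996) and with all arrays in one fit (adjusted p = 0.043).

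The other genes of oligodendrocytes and myelin examined here, 28 genes with 53 clones, gave 0 clones called higher and 1 lower by limma in the basal comparison, 1.89% of them, with 10 under an unadjusted p of 0.05. Their median was 0.11, and 35 of 53 were above 0. The lower clone was Mobp 13452, which encodes a myelin protein, at -0.89 (adjusted p = 0.0016, limma), from -1.47 to -0.35 on the arrays. It is printed in the row after Cnp 13431, in the same column, and print-tip loess gave it -0.25 (adjusted p = 0.30) and the authors' values -0.07 (adjusted p = 0.79). With block columns centred it was at -0.39 (adjusted p = 0.12). The other 5 Mobp clones lay between -0.12 and 0.35.

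Among markers of other cells, Glul and Hbb-b1 alone gave called clones in the basal comparison. Of 26 astrocyte marker clones 4 were called higher in the DBA/2J pool, all of them clones of Glul (0.85 to 1.22). Of 5 clones of red blood cell genes 2 were higher, both Hbb-b1 (1.05 and 0.77). These are 15.4% and 40% of their lists, against 3.63% of all clones called either way. None of 22 neuron, 9 microglia, 8 endothelial and 6 PVN neuron clones was called by limma, with 6, 2, 1 and 1 of them under an unadjusted p of 0.05. The medians of the 6 lists lay between -0.04 and 0.19. Their part in the Mbp result was not tested.

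The next comparisons asked how each strain responded to the swim. In C57BL/6J at 4 h, 1 of the 15 clones was called, Qk 4066, which was lower in the stressed pool. That is 6.67% of the clones, against 0.289% of all clones called either way (0.0175% higher and 0.272% lower). Qk 4066 had log2 ratios from -1.86 to -0.02 on the 10 arrays, with a median of -1.12. All 10 were below 0, and 1 of them only just. The fit gave -1.06 (standard error 0.13, adjusted p = 0.0065, limma), a 2.09-fold difference. The mean was -1.43 with the stressed pool in Cy5 and -0.70 with it in Cy3. It kept its call with print-tip loess, with block columns centred and in the authors' values, and its adjusted p was between 0.0083 and 0.034 with any 1 array left out.

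The other Qk clones at that time were not called. Qk 21679, the brightest, ranged from -0.73 to 0.37 (median -0.27), with a ratio of -0.28 (95% interval -0.52 to -0.03, adjusted p = 0.34). Qk 2606 was at -0.46, Qk 3688 at -0.08 and Qk 10719 at 0.26. Qk 4066 itself passed the level of empty spots on 8 of the 10 arrays here but on 0 arrays of each of the other 4 comparisons. In those its log2 ratios were 0.26 in the basal comparison, -0.38 in C57BL/6J at 8 h, -0.29 in DBA/2J at 4 h and -0.30 in DBA/2J at 8 h, with adjusted p of 0.43 to 0.66.

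In C57BL/6J at 4 h 10 of the 15 clones had an unadjusted p under 0.05, against 12.3% of all clones, and 9 of these were not called. Mbp 10632 was above 0 on all 10 arrays (0.12 to 0.53, median 0.26), with a ratio of 0.31 (standard error 0.09, adjusted p = 0.18, limma). Mbp 7126 was at 0.34 and Mbp 6853 at 0.29, with adjusted p of 0.22 and 0.20. Mbp 12775 was at 0.17, Mbp 17185 at -0.21 and Mbp 22576 at -0.42, with adjusted p of 0.46, 0.46 and 0.39. Cnp 13431 ranged from -0.66 to 0.10 (median -0.29), with -0.29 (adjusted p = 0.16). Its mean was 0.01 with the stressed pool in Cy5 and -0.59 with it in Cy3. Cnp 2973, above empty spots on 1 of these 10 arrays, was at -0.56 (adjusted p = 0.30). Gsn 20046 ranged from -1.85 to 0.60 (median -0.53), with -0.53 (95% interval -0.96 to -0.09, adjusted p = 0.30), and lay above empty spots on 0 of these 10 arrays.

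**Figure D3:**
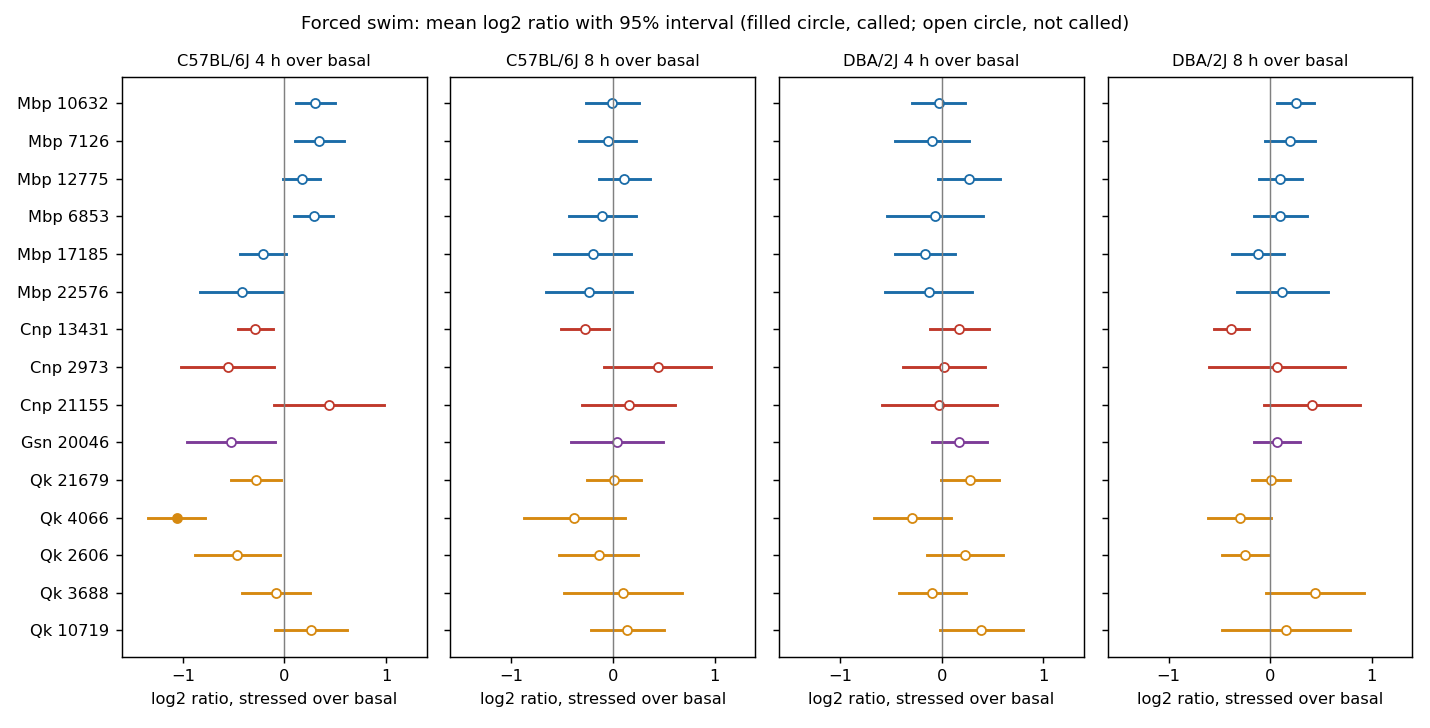
Mean log2 ratio (stressed over basal pool) of the 15 clones with 95% intervals in the 4 stress comparisons, 10 arrays each; a filled circle marks a called clone. Only Qk 4066 in C57BL/6J at 4 h is filled, at -1.06.

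In C57BL/6J at 8 h none of the 15 clones was called by limma or by the methods' t-test, and 1, Cnp 13431, had an unadjusted p under 0.05, against 9.27% of all clones. The t-test was held to the same fold threshold and adjusted p as limma, not to the study's own cut-offs. Of all clones 0.0832% were called, 0.0789% higher and 0.00438% lower. Cnp 13431 was below 0 on all 10 arrays (-0.64 to -0.11, median -0.24), with -0.27 (adjusted p = 0.47). Mbp 10632 ranged from -0.43 to 0.40 (median 0.05), with a ratio of -0.00 and a 95% interval from -0.27 to 0.26. Gsn 20046, from -0.89 to 1.05 (median 0.16), and Qk 21679, from -0.36 to 0.53 (median -0.11), had ratios of 0.04 and 0.01. The Gsn clone lay above empty spots on 1 of these 10 arrays.

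DBA/2J at 4 h likewise had 0 of 15 clones called by limma and by the methods' t-test, with 0 under an unadjusted p of 0.05. Of all clones 0.153% were called (0.0131% higher, 0.14% lower) and 10.6% had an unadjusted p under 0.05. Mbp 10632 ranged from -0.31 to 0.27 (median -0.05), with -0.03 (95% interval -0.29 to 0.23). Cnp 13431 ranged from -0.47 to 0.60 (median 0.32) and was at 0.17, with 0.43 in one dye orientation and -0.08 in the other. Gsn 20046 had 0.18 (-0.32 to 0.44 on the arrays, median 0.19). Qk 21679 had 0.28 (-0.25 to 0.73, median 0.38).

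In DBA/2J at 8 h limma and the methods' t-test called 0 of 15 clones, with 3 under an unadjusted p of 0.05. Of all clones 0.158% were called (0.0789% higher, 0.0789% lower) and 12% had an unadjusted p under 0.05. These calls were 36 clones, and 1 with any 1 of the 10 arrays left out. Cnp 13431 was below 0 on 9 of 10 arrays (-0.77 to 0.04, median -0.39), with -0.38 (standard error 0.08, adjusted p = 0.086, limma). It averaged -0.08 with the stressed pool in Cy5 and -0.69 with it in Cy3. Mbp 10632 was above 0 on all 10 arrays (0.05 to 0.42, median 0.24), with 0.25 (adjusted p = 0.26). Gsn 20046 had 0.07 (-0.41 to 0.63, median 0.03) and Qk 21679 had 0.01 (-0.37 to 0.49, median -0.04).

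None of the 53 clones of the other oligodendrocyte and myelin genes was called by limma in any of the 4 stress comparisons. Under an unadjusted p of 0.05 there were 8 at 4 h and 3 at 8 h in C57BL/6J, and 4 and 8 in DBA/2J. The medians of that list lay between -0.05 and 0.06. Over 3663 clones above empty spots on at least 50% of arrays, the mean ratios of the 2 dye orientations correlated at 0.41 in the basal comparison. In the stress comparisons the correlation was 0.21 and -0.11 in C57BL/6J at 4 h and 8 h, and -0.04 and 0.16 in DBA/2J. These are correlations across clones of the same arrays, given as a description.

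Whether the strains differed in their response was tested directly, as the DBA/2J ratio minus the C57BL/6J ratio over the 20 arrays of each time. At 4 h limma called 0 of 15 clones, with 7 under an unadjusted p of 0.05, against 2.34% of all clones called (1.16% higher, 1.19% lower) and 13.6% under 0.05. The study's methods give no test between comparisons, so their t-test was used in an unpaired form. It called 1 clone, Qk 21679, at a difference of 0.56 (adjusted p = 0.037, and 0.081 by limma). Qk 4066 came nearest in limma, with 0.77 (95% interval 0.32 to 1.23, adjusted p = 0.065). Gsn 20046 differed by 0.70 (0.22 to 1.19, adjusted p = 0.13) and Cnp 13431 by 0.46 (0.17 to 0.75, adjusted p = 0.099). The Gsn clone lay above empty spots on 10 arrays in DBA/2J but on 0 in C57BL/6J, so its difference rests on 1 side near that level. Mbp 10632 differed by -0.34 (-0.61 to -0.06, adjusted p = 0.24). Qk 2606 differed by 0.70 (adjusted p = 0.20). It passed the level of empty spots on 7 arrays in C57BL/6J and 0 in DBA/2J, and Qk 4066 on 8 and 0. In DBA/2J Qk 2606 averaged 0.71 with the stressed pool in Cy5 and -0.24 with it in Cy3. At 8 h 0 of 15 clones were called by limma and by the t-test, 0 had an unadjusted p under 0.05, while 0.6% of all clones were called (0.206% higher, 0.394% lower) and 10.4% had an unadjusted p under 0.05. There Mbp 10632 differed by 0.25 (-0.02 to 0.53). Of the 53 clones of the other genes limma called 0 at both times, with 8 and 3 under an unadjusted p of 0.05.

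**Figure D4:**
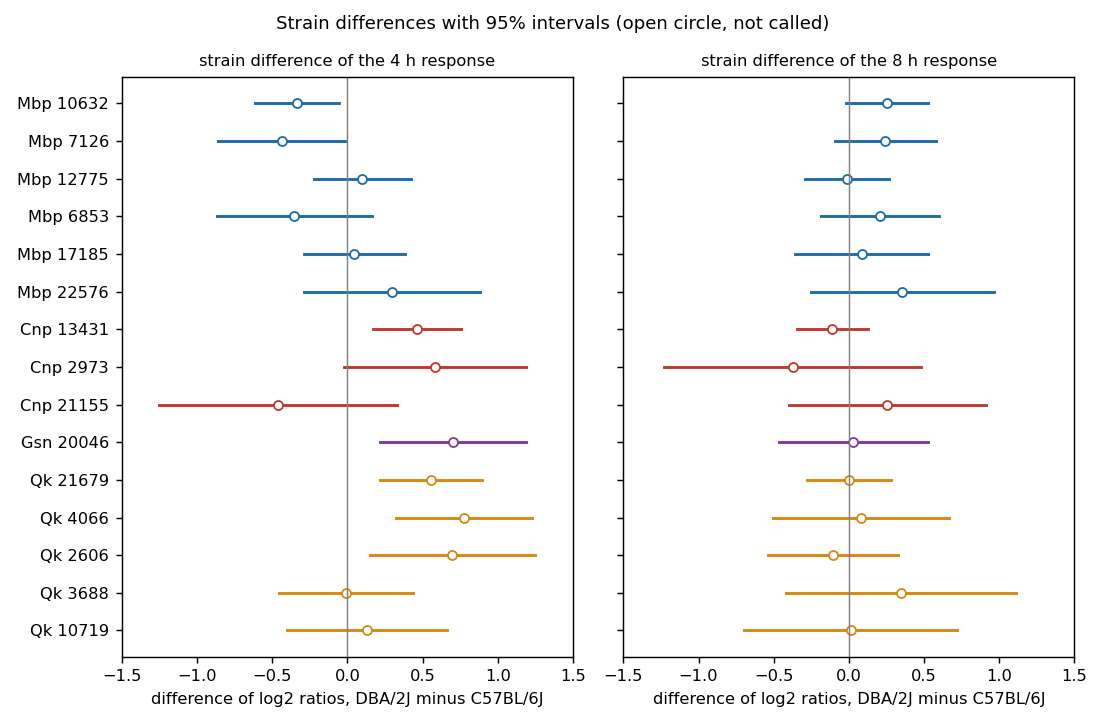
Difference of the log2 ratios after forced swim (DBA/2J minus C57BL/6J) of the 15 clones at 4 h and 8 h with 95% intervals over 20 arrays; open circles are clones not called. At 4 h the unadjusted intervals of Qk 4066, Qk 21679, Qk 2606, Gsn 20046 and Cnp 13431 lie right of 0 and those of Mbp 10632 and Mbp 7126 left of it, and at 8 h every interval includes 0.

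Clones of the same gene were compared over all 50 arrays after removing each clone's dye effect, as a description, since the arrays of a comparison share their pools. The 4 Mbp clones that were called in the basal comparison correlated with each other at 0.43 to 0.73. Within comparisons, where the difference between pools is taken out, the same pairs correlated at -0.06 to 0.24. Mbp 17185 correlated negatively with each of the 4, at -0.40 to -0.11. The Cnp pairs lay between -0.10 and 0.27 and the Qk pairs between -0.16 and 0.48. Mbp 10632 and Cnp 13431 correlated at -0.72 over all arrays and at 0.29 within comparisons.

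The named clones most like the brightest clone of each gene were sought among 1701 clones above empty spots on at least 50% of arrays. For Mbp 10632 they were ribosomal protein L21 (0.85), popeye 3 (0.84) and growth arrest specific 5 (0.81), whose correlations within comparisons were 0.04, 0.24 and 0.27. For Cnp 13431 they were Mobp 13452 (0.93, and 0.64 within comparisons), short coiled coil protein (0.89) and Rab23 (0.89). The Mobp clone is printed in the next row of the same block column, and the part of position in their likeness was not tested. The nearest to Gsn 20046 was stearoyl-Coenzyme A desaturase 2 (0.71), which is printed in the same block column. Qk 21679 had no clone above 0.58.

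**Figure D5:**
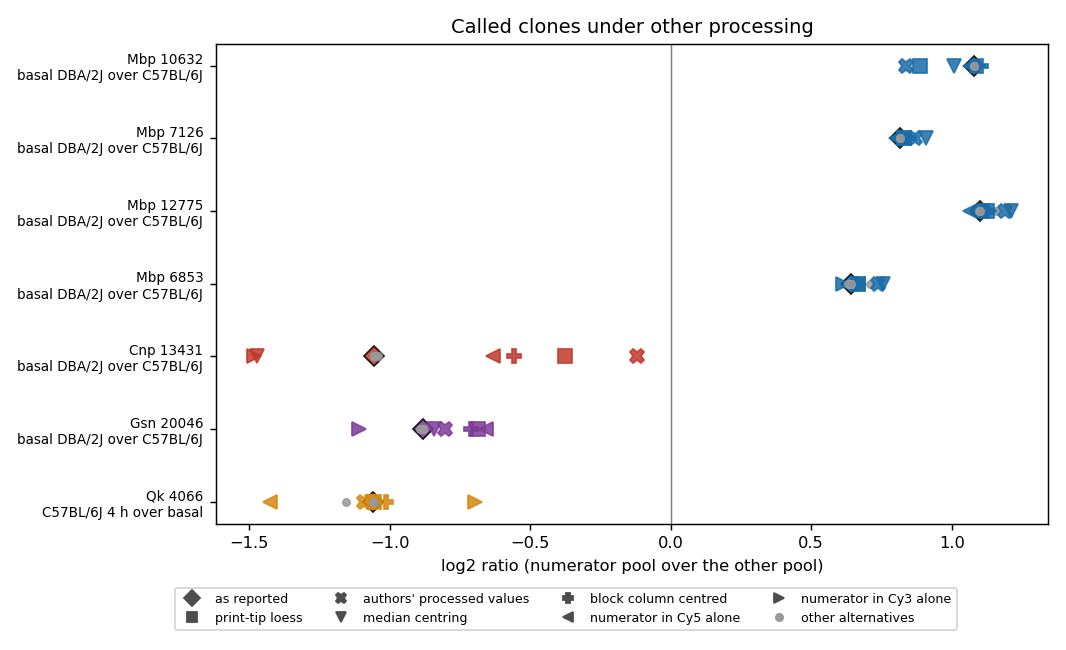
Log2 ratio of the 7 called results under the reported processing (diamond with black edge) and the alternatives. The 4 Mbp clones lie between 0.61 and 1.21, whereas Cnp 13431 runs from -1.48 to -0.12.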

How the data were processed

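RNA of 6 pools was hybridised on 50 two-colour cDNA arrays. The authors deposited the scanned intensity of 24192 spots per array in Cy5 and Cy3, quantified in fixed circles and not background subtracted per the file headers, and a table of log2 ratios they had normalized for 19047 spots, whose scale and direction were found by setting it against the intensities. It holds 14 of the 15 clones. The dye of each channel was taken from the image name in the header, since 4 arrays hold Cy5 in the second channel.

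Intensities were corrected by normexp (offset 50), normalized by global loess with the 1368 control spots at weight 0, and fitted in limma 3.58.1 (R 4.3.3) with a dye term. Control spots were not tested. The number of arrays limits the precision. A signal at the 95th percentile of empty spots was taken as their level. The fit was tested on simulated data. Clones called in at least 1 comparison and the brightest clone of each gene are given by array, and of the other myelin genes up to 4 called clones per comparison. The members and gene lists were chosen with earlier results of these data known. Some genes are not reported here and are left out of the members, the lists and their counts, but not of the fits over all clones. Sequences and positions in the genome are not given, as the files name no build. Tables and plots used matplotlib 3.10.9, NumPy 2.4.6, pandas 2.3.3 and Python 3.11.15.

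Alternatives in normalization were uncorrected intensities, print-tip loess, centring on the median, equal scale across arrays and the authors' values. Those in testing were leaving out dim clones, leaving out the dye term, the methods' t-test, the adjusted p without a fold threshold, single dye orientations or their averages, a joint fit of the 50 arrays, the scan day or the replicate number as a block, and dropping each array. The methods' t-test tested the mean ratio within a comparison, and was unpaired between comparisons for the strain differences. Its p-values were adjusted as for limma, and the study's Z-score cut-off was not used. Block columns were centred as an alternative chosen after seeing the data.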

Additional observations from a re-analysis of the deposited data

Results flagged for a closer look

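In 4 of 75 sets of 10 arrays (15 clones in 5 comparisons), 1 array stood apart from the other 9 by Dixon's criterion at 95%, which chance gives in about 1 in 20 sets. Mbp 7126 had -1.65 on replicate 5 of DBA/2J at 4 h, where the other 9 arrays lay between -0.36 and 0.40, and its Cy5 intensity there, 169, was its lowest of the 50 arrays. The same clone had -0.77 on replicate 4 of C57BL/6J at 8 h, against -0.19 to 0.41. Cnp 13431 had -0.64 on replicate 6 of C57BL/6J at 8 h, against -0.38 to -0.11, and Qk 4066 had -0.79 on replicate 5 of the basal comparison, against 0.03 to 0.89. None of these 4 sets was called with all 10 arrays, or without the array that stood apart.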

How the results depend on the processing

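The basal count of 6 called clones was 5 to 8 under most alternatives, 3 when the fit used the Cy3 orientation alone, 0 for the Cy5 orientation alone and 0 when each orientation was averaged to 1 value. These fits rest on 5 arrays or on 2 averages, and the direction was the same in all. Cnp 13431 lost its call under print-tip loess and in the authors' values, and the cause was not tested. The C57BL/6J 4 h count of 1 became 0 with either orientation alone and with orientations averaged. In C57BL/6J at 8 h, in DBA/2J at 4 h and 8 h and for the strain difference at 8 h the count was 0 under every alternative. For the strain difference at 4 h the count was 1 with print-tip loess, the methods' t-test, the scan day as a block and all arrays in one fit, and 3 with the filter on dim clones.

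With any 1 array left out the basal count was 5 to 6, the C57BL/6J 4 h count 1 throughout, and that of the strain difference at 4 h 0 to 2: it was 1 without C57BL/6J replicate 4 (Gsn 20046) or DBA/2J replicate 1 (Qk 4066) and 2 without C57BL/6J replicate 7 (Qk 4066 and Qk 21679). No called clone changed sign under any alternative. The scan day block had correlations of -0.07 to -0.01. With the replicate number as a block the counts of both strain differences were 0, and calls over all clones fell from 535 to 127 and from 137 to 30. Same-numbered arrays of the 2 strains correlated at -0.00 to 0.02 at 4 h and -0.01 to 0.01 at 8 h, and 1 of 10 correlated best with its own number at each time, so they share a number and are not pairs. Calls over all clones ranged from 35 to 1234 under the alternatives in the basal comparison (828 as reported), 0 to 173 (66) and 1 to 197 (19) in C57BL/6J at 4 h and 8 h, 0 to 355 (35) and 0 to 152 (36) in DBA/2J, and 0 to 923 (535) and 0 to 292 (137) for the strain differences. With any 1 array left out these calls were 16 to 42 and 9 to 14 in C57BL/6J at 4 h and 8 h, and 12 to 17 and 1 in DBA/2J. Dimmer clones had wider errors. In the basal comparison the median standard error was 0.14 for the 11 clones in the brighter 50% and 0.24 for the other 4.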
